A study of Mus musculus with 24 samples.

Results

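Interferon-gamma-induced GTPases were examined in mouse colon through 10 genes chosen by family and name: the guanylate-binding proteins Gbp2, Gbp3, Gbp5, Gbp6 and Gbp7, and the immunity-related GTPases Irgm1, Irgm2, Igtp, Ifi47 and Iigp1. The choice was made with earlier results of these data known. These genes were measured by 12 of 56605 probes and are 10 of 45616 gene names on the array. Irgm1 had 3 probes and every other member had 1.

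Each of the 24 arrays held RNA of colon, distal colon by the study's methods, from a C57BL/6J mouse. The mice were given azoxymethane (AOM, 10 mg/kg), which causes colon tumors, then 1.5% dextran sulfate sodium (DSS) in 3 cycles to injure the gut lining. Mice were bought at 7 weeks of age and fed for 14 weeks a low-fat diet (LFD, 10% of calories as fat) or a high-fat diet (HFD, 45%). The 6 groups of 4 arrays were sham-operated males (M + LFD, M + HFD), sham-operated females (F + LFD, F + HFD) and ovariectomized females (F(OVX) + LFD, F(OVX) + HFD). No group was without AOM and DSS, and animals were picked for arrays by how near their body weight was to the group average, so no untreated colon was compared. The question put to the data was whether HFD moved these genes, and whether it did so alike in males, females and OVX females.

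Interferon-gamma, made mainly by T and NK cells, signals through the kinases JAK1 and JAK2, and promoters of its target genes often hold GAS elements. It also raises IRF1, a factor that binds the interferon-stimulated response element (ISRE), an element that type I interferons act through as well. Guanylate-binding proteins are dynamin-like GTPases that coat bacteria and the vacuoles that hold them and help to start inflammasome signaling. Among immunity-related GTPases, Irgm1, Irgm2 and Igtp (also called Irgm3) sit on the cell's own membranes and keep the effector members in check, while Iigp1 and Ifi47 are effectors that load onto pathogen vacuoles. In the colon these genes are expressed by epithelium as well as by macrophages and other immune cells.

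The promoters are shown first because most of those matched hold an element through which interferons act. The choice of members did not use their sequence, but they were chosen as interferon-gamma-induced genes. RefSeq (GRCm38.p6) sequences of the 250 bases before the transcription start were matched for 8 of the 10 members. Both strands were searched for an ISRE core, read here as GAAA, any 2 bases, then GAAA, and for a GAS element, TTCNNNGAA. Counting a gene with a match at any of its starts, the ISRE core was present in 7 of the 8 members, against 2.98% of 32851 promoter windows of the same length. A GAS element was present in 4 of the 8, against 7.02%, and both were present in 4 of the 8 (Gbp5, Gbp7, Irgm2 and Igtp), against 0.332%. Ifi47 and a second start of Gbp3 had neither in this window. Members were counted at any start and the other promoters by window, and the members are related genes, so the shares are a description. These matches are descriptions of letters and not measured binding.

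The 120 bases before the start are printed for the 6 members whose ISRE core lies there, with ISRE cores and GAS elements in capitals.
Gbp2, chr3:142620543-142620662, plus strand: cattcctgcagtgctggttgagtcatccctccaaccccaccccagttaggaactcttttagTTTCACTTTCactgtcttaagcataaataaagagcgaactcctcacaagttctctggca
Gbp3, chr3:142559924-142560043, plus strand: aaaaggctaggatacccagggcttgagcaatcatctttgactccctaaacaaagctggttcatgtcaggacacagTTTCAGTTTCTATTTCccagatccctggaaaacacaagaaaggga
Gbp7, chr3:142530216-142530335, plus strand: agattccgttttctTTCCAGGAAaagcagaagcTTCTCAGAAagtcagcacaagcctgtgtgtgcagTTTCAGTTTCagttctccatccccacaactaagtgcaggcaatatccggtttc
Igtp, chr11:58199436-58199555, plus strand: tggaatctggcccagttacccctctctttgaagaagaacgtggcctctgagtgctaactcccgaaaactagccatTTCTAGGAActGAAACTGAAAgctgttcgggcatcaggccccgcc
Irgm2, chr11:58214857-58214976, plus strand: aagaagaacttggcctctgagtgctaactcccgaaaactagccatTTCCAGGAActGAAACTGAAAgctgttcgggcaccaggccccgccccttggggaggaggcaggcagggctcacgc
Irgm1, chr11:48871421-48871540, minus strand: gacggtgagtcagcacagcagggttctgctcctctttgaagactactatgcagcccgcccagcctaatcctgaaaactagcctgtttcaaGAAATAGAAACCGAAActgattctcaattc
In Igtp and Irgm2 the GAS element was followed after 2 bases by the ISRE core, and over the 90 bases that line up between these neighboring genes 87 were identical (96.7%). In Irgm1 and Gbp3 the capitals hold 2 overlapping ISRE cores, at -30 and -24 in Irgm1 and at -45 and -39 in Gbp3 (first base, counted back from the start). The 4 guanylate-binding protein genes with a match carried the core on the opposite strand, and the 3 immunity-related GTPase genes carried it on the strand of the gene. In Gbp5 the core lay at -165, further out than in the 6 genes printed.

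**Figure D1:**
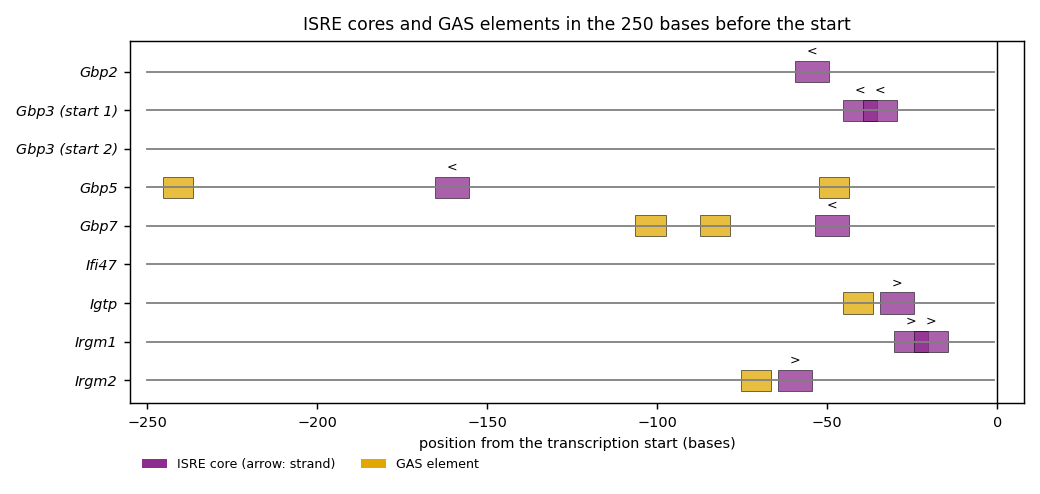
Positions of ISRE cores (purple, arrow giving the strand) and GAS elements (yellow) on the 250 bases before the start, in bases from the start, for the 8 members with a RefSeq promoter and both starts of Gbp3. Igtp and Irgm2 show the same pair of matches 30 bases apart, while Ifi47 shows none.

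Signals are given as quantile-normalized log2 intensities, and each gene is represented by its brightest probe. All 10 members were well above background on all 24 arrays. Levels of different genes are not compared, since probes differ in brightness. Over the series 40.5% to 61.9% of probes per array were well above background and no spot was saturated. On 2 M + LFD arrays, replicates 1 and 2, Hoxb13, a gene of the distal colon, was at 2.18 and 5.04, while the other 22 arrays were at 12.58 or more, and results in males are also given without these 2 arrays. Each sex or surgery lay on 1 slide, so slide and sex or surgery cannot be told apart, and within each slide LFD filled the first row and HFD the second, so slide row and diet cannot be told apart either. The replicate number was also the slide column, so a block by replicate number is a block by slide column as well.

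By group mean, M + HFD was the lowest of the 6 groups for 8 of the 10 members, the exceptions being Gbp2 and Gbp5. F + LFD was the highest for 7 members, and M + LFD was the highest for Gbp6, Irgm1 and Ifi47. The highest and lowest group means were 0.82 (Gbp2) to 1.83 (Iigp1) log2 units apart. In all 50 pairs of neighbors in these orders the arrays of both groups overlapped. Between the lowest and the highest group the arrays of Gbp7, Irgm2, Igtp and Iigp1 did not overlap, with M + HFD lowest and F + LFD highest in all 4, and the highest M + HFD array of Iigp1 read 10.29 where the lowest F + LFD array read 11.13. These groups were picked by their means, and the share of all genes without overlap between such groups was not computed, so this is a description. The median SD over the members was 0.94 in F(OVX) + LFD and 0.83 in M + LFD, and 0.36 in F + LFD and 0.40 in M + HFD.

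**Figure D2:**
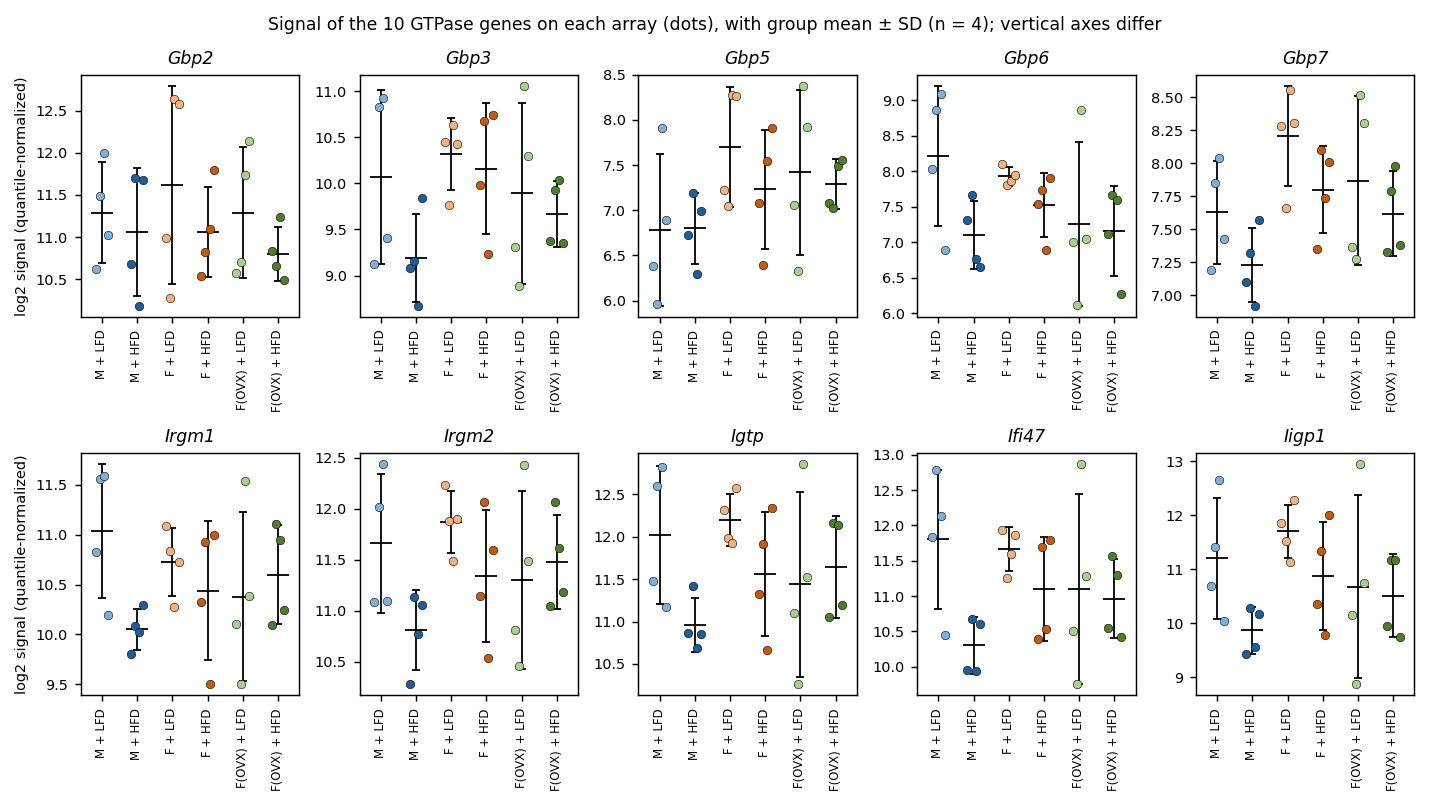
Log2 signal of each GTPase gene (vertical axes, quantile-normalized, differing between panels) in the 6 groups, with 1 dot per array and the mean ± SD of 4 arrays. M + HFD dots lie low and close together for most genes, while M + LFD and F(OVX) + LFD dots are widely spread.

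In males, HFD went with lower levels of most of these genes. Against M + LFD, 6 of 10 members were called lower in M + HFD (fold change of at least 1.5 with an unadjusted p under 0.05 in limma) and 0 were called higher, where 1.80% of 20516 genes tested were called lower and 2.50% higher. The 6 were Gbp6 and all 5 immunity-related GTPases. As the members were chosen with earlier results of these data known, the counts beside these shares are a description. Means were lower on HFD for 9 members, against 48.2% of genes. The median log2 difference over the 10 members was -0.94, against 0.01 over all genes tested. Adjusted over all genes, no member passed (lowest adjusted p = 0.800 in limma), as was so for every gene tested.

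The immunity-related GTPases Irgm1, Irgm2 and Igtp, which regulate the effectors, were called together. Irgm1 read 10.83, 11.56, 11.59 and 10.20 in M + LFD and 9.80, 10.08, 10.02 and 10.30 in M + HFD. Only replicate 4 of M + LFD lay within the HFD range, and the SD was 0.21 over the HFD arrays and 0.67 over the LFD arrays. The log2 difference was -0.99 ± 0.31 (SE, n = 4 against 4), a 1.99-fold lower signal, with an exact permutation p of 0.0571 (two-sided, smallest possible 0.0286). Its other probes gave log2 differences of -0.87 and -1.02. Igtp read 11.48, 12.60, 12.82 and 11.17 in M + LFD and 10.87, 11.42, 10.69 and 10.85 in M + HFD, and again LFD replicate 4 alone fell within the HFD range. It was lower by a log2 difference of -1.06 ± 0.38 (SE; exact permutation p = 0.0571, n = 4 against 4). Irgm2 read 11.09, 12.02, 12.44 and 11.10 in M + LFD and 10.28, 11.14, 10.77 and 11.06 in M + HFD, so that LFD replicates 1 and 4 lay beside the upper HFD arrays. Its log2 difference was -0.85 ± 0.35 (SE; exact permutation p = 0.114, n = 4 against 4).

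The effectors Ifi47 and Iigp1 had the largest differences among the members. Ifi47 read 11.84, 12.78, 12.13 and 10.45 in M + LFD and 9.96, 10.68, 9.94 and 10.61 in M + HFD. Replicates 1 to 3 of M + LFD were above every HFD array, and replicate 4 was below HFD replicates 2 and 4. The log2 difference was -1.5 ± 0.46 (SE), a 2.83-fold lower signal (exact permutation p = 0.0857, n = 4 against 4). Iigp1 read 10.69, 11.42, 12.65 and 10.04 in M + LFD and 9.44, 10.29, 9.57 and 10.17 in M + HFD. Here too LFD replicate 4 was the lowest of its group and lay among the HFD arrays. Its log2 difference was -1.33 ± 0.51 (SE; exact permutation p = 0.0857, n = 4 against 4).

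Among guanylate-binding proteins only Gbp6 was called. It read 8.03, 8.86, 9.09 and 6.89 in M + LFD and 7.31, 7.67, 6.77 and 6.65 in M + HFD, with LFD replicate 4 below HFD replicates 1 and 2. The log2 difference was -1.12 ± 0.48 (SE; exact permutation p = 0.114, n = 4 against 4). Gbp3 and Gbp7 were not called, with log2 differences of -0.89 (95% interval -1.92 to 0.15) and -0.40 (-0.92 to 0.13). Gbp5, which promotes assembly of the NLRP3 inflammasome, read 6.38, 5.96, 7.91 and 6.89 in M + LFD and 6.73, 7.19, 6.29 and 6.99 in M + HFD, a log2 difference of 0.02 (-0.90 to 0.94). Gbp2, which acts in the release of bacteria from vacuoles, differed by -0.23 (-1.18 to 0.73). For neither of these genes did the arrays of one diet lie apart from those of the other, and 0 of the 10 members were without overlap between the diets, against 0.911% of genes with every HFD array below every LFD array.

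The number of male calls rested on single arrays. Leaving out 1 array at a time gave 2 to 6 calls, all lower, with 2 without M + LFD replicate 2 or M + HFD replicate 3 and 3 without M + LFD replicate 3 or M + HFD replicate 1. Irgm1 and Ifi47 were called in all 8 of these. The shares of all genes called in these 8 fits are not given here. Without both M + LFD arrays of low Hoxb13, which leaves 2 against 4, 0 members were called while the median difference was -0.92. In that fit 2.49% of genes were called lower and 1.64% higher, against 1.80% and 2.50% with all arrays. The methods' t-test called 2 members (Irgm1 and Ifi47). The share of all genes called by that test is not given here, nor is it for intact or OVX females below.

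In intact females the means were lower on HFD for all 10 members and 0 were called, where 0.797% of 22085 genes were called lower, 0.398% higher and 50.8% had a lower mean. The median log2 difference was -0.50, no member had an unadjusted p under 0.05 in limma, and the methods' t-test also called 0. Iigp1 read 11.86, 11.53, 11.13 and 12.29 in F + LFD and 10.35, 11.34, 9.78 and 12.01 in F + HFD. HFD replicates 1 and 3 lay below every LFD array and replicates 2 and 4 lay among them. The log2 difference was -0.83 (95% interval -1.93 to 0.27), the largest of the 10. Igtp read 12.32, 11.98, 11.93 and 12.58 in F + LFD and 11.33, 11.91, 10.67 and 12.34 in F + HFD, a difference of -0.64 (-1.44 to 0.16), with HFD replicate 4 alone inside the LFD range. Irgm1 showed a smaller difference of -0.29 (-1.08 to 0.49), and Gbp3 the smallest, -0.16 (-0.97 to 0.66). Same-numbered F arrays deviated together, and with replicate number as a block 2 members were called lower, Igtp and Iigp1, both with an adjusted p of 0.666 in limma, where 1.68% of genes were called lower in that fit. Without F + HFD replicate 4 the same 2 members were called, without F + HFD replicate 2 Irgm2 and without F + LFD replicate 2 Gbp7. For these fits that left out 1 array, the shares of all genes called are not given here.

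In OVX females no common direction was seen. Means were lower on HFD for 7 members, against 47.8% of genes, and higher for Irgm1, Irgm2 and Igtp, the median log2 difference was -0.14, and 0 were called, where 1.02% of 19211 genes were called lower and 1.18% higher. No member had an unadjusted p under 0.05 in limma, and the methods' t-test called 0. Iigp1 read 10.16, 8.87, 12.95 and 10.74 in F(OVX) + LFD and 9.95, 11.18, 11.17 and 9.75 in F(OVX) + HFD. The LFD arrays reached both above and below all HFD arrays, and the log2 difference of -0.17 had a 95% interval of -1.92 to 1.59. Irgm1 read 10.10, 9.5, 11.54 and 10.39 in F(OVX) + LFD and 10.09, 11.11, 10.95 and 10.25 in F(OVX) + HFD, a difference of 0.22 (-0.74 to 1.17). Replicate 3 of F(OVX) + LFD was the highest array of its group for 9 members and also had the fewest probes above background of all 24, 40.5%, and whether the latter had a part was not tested. Without that array the median was 0.44 and 0 members were called.

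**Figure D3:**
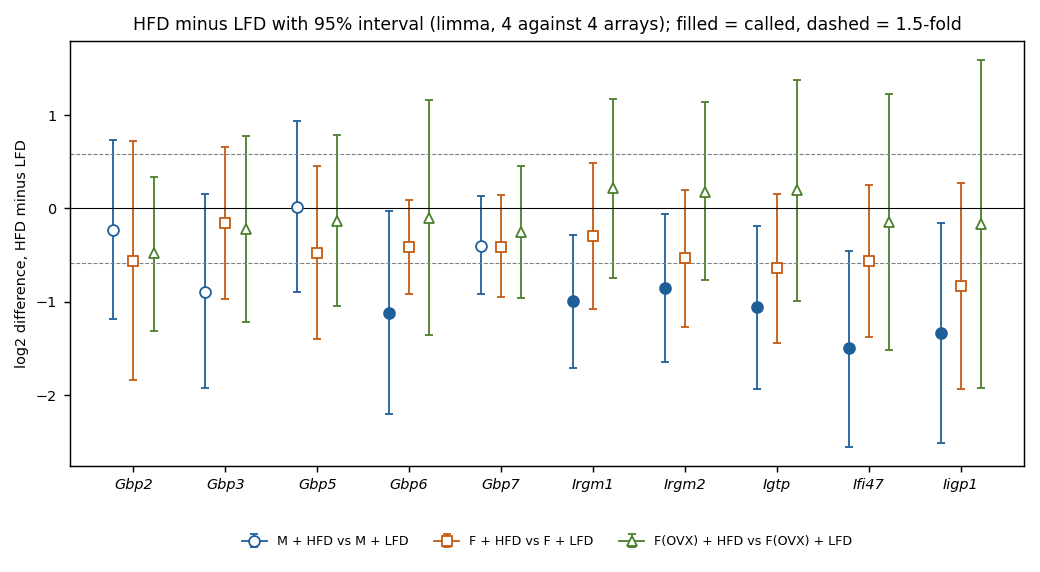
Log2 difference of HFD minus LFD (vertical axis) for each GTPase gene in males (circles), females (squares) and OVX females (triangles), with 95% intervals from limma on 4 against 4 arrays; filled symbols were called and dashed lines mark a 1.5-fold change. The 6 filled symbols are all males, and every interval for females and OVX females crosses 0.

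The diet effects were then set against each other in 1 fit of all 24 arrays. Between males and intact females the diet effect was more negative in males for 7 members and less so for Gbp2, Gbp5 and Gbp7, and 0 were called, where 1.08% of 22383 genes were called lower and 1.87% higher, and the interval for Ifi47, -2.52 to 0.65, was wide. Between males and OVX females Irgm1 alone was called, with a difference in log2 effect of -1.21 ± 0.56 (SE; 95% interval -2.38 to -0.04; adjusted p = 0.660 in limma), where 3.05% of genes were called lower and 3.11% higher. The median of this difference over the members was -1.03. The calls moved with single arrays, as leaving out F(OVX) + LFD replicate 3 gave 6 and leaving out M + LFD replicate 4 gave 5. Of the other arrays, 10 each gave 0 when left out. The shares of all genes called in those fits are not given here. Between OVX and intact females 0 were called, where 0.755% of genes were called lower and 0.764% higher, and 2 (Irgm2 and Igtp, both higher) were called without F(OVX) + LFD replicate 3. Averaged over the 3 comparisons, Ifi47 was called lower on HFD, by a log2 difference of -0.74 ± 0.31 (SE, limma p = 0.0279, adjusted p = 0.984 in limma, n = 12 against 12), where 0.572% of genes were called lower and 0.201% higher. That call was lost without M + LFD replicate 2, F + HFD replicate 1 or F(OVX) + LFD replicate 3. All 10 members had a lower average on HFD, against 48.3% of genes, with a median of -0.42.

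Across the groups on one diet, few members were called. On HFD all 10 means were lower in males than in intact females, against 49.9% of genes, and Gbp3 was called, at 9.19 ± 0.48 against 10.16 ± 0.71 (SD, n = 4 each; log2 difference -0.97, 95% interval -1.93 to -0.01, adjusted p = 0.361 in limma), where 3.28% of genes were called lower and 4.23% higher. No member was called there without M + HFD replicate 1, 2 or 3 or F + HFD replicate 2 or 4. On LFD 0 were called between males and intact females, where 2.18% and 2.88% were called; Gbp5 had the largest difference, -0.92 (95% interval -1.84 to 0.01). OVX females on LFD had lower means than intact females for all 10 members, as did 11199 of 22383 genes, with 0 called, where 1.16% of genes were called lower and 0.541% higher. Without F(OVX) + LFD replicate 3, 5 members were called lower there, Gbp6 and the immunity-related GTPases other than Irgm1, with log2 differences of -0.95 to -1.78 and adjusted p of 0.999 in limma, where 0.898% of genes were called lower. On HFD 0 were called between OVX and intact females, where 1.33% of genes were called lower and 0.978% higher. The intervals were wide, as for Iigp1 (log2 difference -0.36, 95% interval -1.77 to 1.05).

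The spread between arrays of a group was shared by the members. Over the 24 arrays the 45 pairs of members correlated with r from 0.19 to 0.96, median 0.75, and after each group's mean was taken out the median was 0.78, given as a description because all pairs share the same arrays. Igtp and Iigp1 were the closest pair (0.96). Gbp5 and Gbp2 followed the other 9 least, with r of 0.50 and 0.59, whereas Iigp1 and Igtp followed them with 0.96 and 0.95. Members were high together on F(OVX) + LFD replicate 3, where 9 of 10 were among their 4 highest arrays, and on M + LFD replicate 3, with 8. They were low together on M + HFD replicate 3, where all 10 were among their 4 lowest, and on F(OVX) + LFD replicate 2, with 9. Hoxb13 had r = -0.12 with the mean of the members. That r rests largely on the 2 M + LFD arrays of low Hoxb13, at 2.18 and 5.04, and these did not hold the members at 1 level. The part of the colon piece in the members' levels was not tested.

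**Figure D4:**
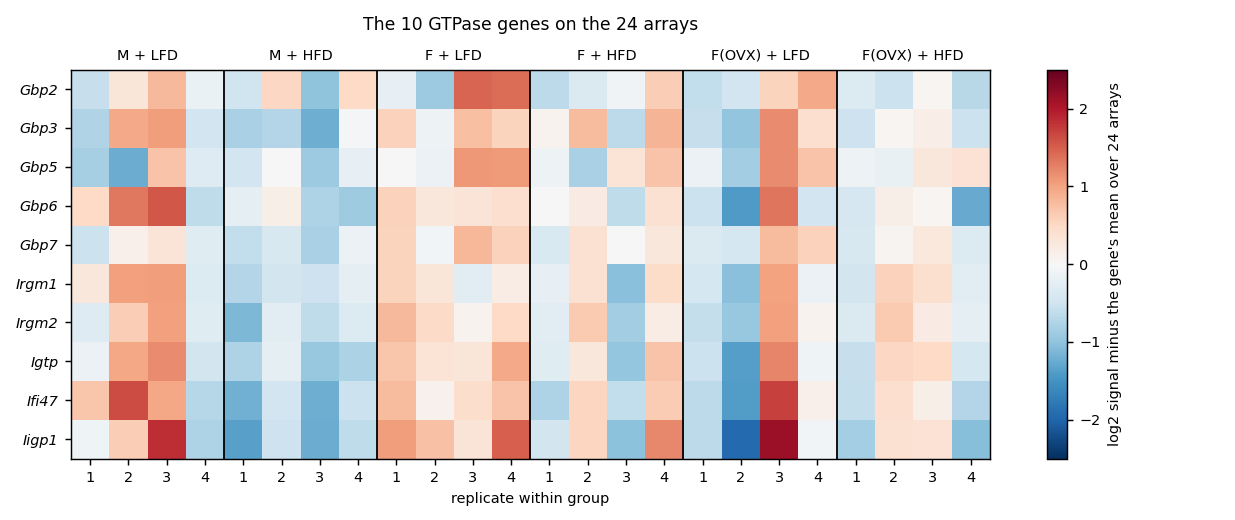
Log2 signal of each GTPase gene minus its mean over the 24 arrays (color, red above and blue below) for the 4 replicates of each group (columns). Whole columns are red or blue, as on F(OVX) + LFD replicates 3 and 2, so arrays of 1 group can lie at both ends.

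Of 11869 named genes well above background on all arrays, those most like the mean of the members over the 24 arrays included Gm4951 (r = 0.98), Psmb9 (0.93), Tgtp2 (0.92), Gm12250 (0.91), Cxcl9 (0.90), Nlrc5 (0.89), Ube2l6 (0.89), Psmb8 (0.87) and Dtx3l (0.86), where the median gene had r = -0.02. Gm4951, Tgtp2 and Gm12250 belong to the immunity-related GTPases themselves. Psmb8 and Psmb9 are immunoproteasome subunits, Nlrc5 is the activator of MHC class I genes, and Cxcl9 is a chemokine that draws T cells.

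The cytokine and its signaling chain were read from a list of 36 pathway genes, of which 31 were tested in males. In that comparison 6 were called lower and 1 higher, where 1.80% of 20516 genes were called lower and 2.50% higher. The median log2 difference over the list was -0.47. Ifng, the cytokine itself, read 6.01, 6.07, 5.77 and 4.60 in M + LFD and 3.79, 4.66, 3.98 and 4.67 in M + HFD, but was well above background on all 4 LFD arrays and 2 of the HFD arrays, so that its difference of -1.34 ± 0.36 (SE) rests on signals near background. Nlrc5 (-0.84), Psmb8 (-0.83), Tap1 (-1.02), a peptide transporter for MHC class I, and Tbx21 (-0.63), the T-bet factor of Th1 cells, were also called lower. The inducer Il18 was higher on HFD in males (1.60 ± 0.56), with its lowest LFD arrays those of low Hoxb13. Without the M + LFD arrays of low Hoxb13, 3 genes of the list were called lower, Nlrc5 and Tap2 among them, and 0 higher, where 2.49% of genes were called lower and 1.64% higher, so that the calls of Ifng, Psmb8, Tap1, Tbx21 and Il18 were lost. In intact females Socs3 (-0.91) and Tbx21 (-0.77) were called lower among 31 tested, where 0.797% of genes were called lower and 0.398% higher. In OVX females Il18r1 (-1.04) and Nos2 (-2.02) were called lower among 30, where 1.02% of genes were called lower and 1.18% higher. No gene of the list passed adjustment over all genes in any of the 3 (lowest adjusted p 0.800, 0.991 and 1.0 in limma).

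Of 19 further members of the GTPase families, 12 were tested in males. Where 1.80% of all genes were called lower and 2.50% higher, 4 of the 12 were called lower, none higher. These were Gbp8 (-0.72), Gm12250 (-1.33), Gm4951 (-1.20) and Gm5431 (-1.11), and the median over the 12 was -0.42. Without the M + LFD arrays of low Hoxb13 0 of the 12 were called, with a median of -0.53. Over all genes 2.49% were called lower and 1.64% higher in that fit. In intact and OVX females 0 of 13 and 0 of 12 were called, with medians of -0.30 and -0.08. There 0.797% and 1.02% of all genes were called lower, and 0.398% and 1.18% higher. A list of 20 antiviral genes of the type I interferon response, typically driven through the ISRE, was read on the same arrays. In males all 20 had lower means, 6 were called lower and the median was -1.21, and without the arrays of low Hoxb13 5 were called lower with a median of -0.96. In intact females 0 were called with a median of -0.37, and in OVX females 0 were called with a median of 0.25 and higher means for 19. The shares of all genes called in these comparisons are those given above for the further GTPases.

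Colon is a mixed tissue, and in such samples fewer cells of a type and less RNA per cell cannot be told apart. Markers of T and NK cells, the main source of interferon-gamma, had lower means on HFD in males for all 12 tested, with a median of -0.61. Of the 12, 2 were called lower (Cd3g -0.64, Cd8b1 -1.26), where 1.80% of genes were called lower. The summed log2 signal of the T and NK markers ran from 11.94 to 13.05 in M + LFD and from 11.52 to 12.05 in M + HFD. The highest sums, 13.05 and 12.96, were those of M + LFD replicates 1 and 2, the arrays of low Hoxb13, while replicates 3 and 4 read 12.20 and 11.94, the latter within the HFD range. Without those 2 arrays the median was -0.36 and means were lower for 10 of the 12. In that fit 1 marker (Klrk1) was called lower in place of Cd3g and Cd8b1, where 2.49% of genes were called lower. Of these markers Ncr1 was above background on no array. Macrophage markers had higher means on HFD in males for all 11 tested, with a median of 0.09 and 0 called, but lower means for 7 of the 11 and a median of -0.12 without the arrays of low Hoxb13. In intact females 10 of the 11 had lower means on HFD, with a median of -0.42 and 0 called, beside the members' -0.50. In OVX females all 11 had lower means, with a median of -0.43 beside the members' -0.14. There 1 macrophage marker was called lower (Mrc1 -0.67), where 1.02% of genes were called lower. The summed signal of these markers ran from 15.66 to 16.58 in F + LFD and 15.51 to 16.12 in F + HFD, and from 15.56 to 16.16 in F(OVX) + LFD and 15.49 to 15.96 in F(OVX) + HFD. In intact and OVX females the T and NK medians were -0.38 and -0.13 with 0 called. Smooth muscle markers had medians of -0.02 in males, 0.46 in intact and 0.84 in OVX females, with 4 of 6 called, higher in OVX females. There 1.18% of genes were called higher. Epithelium markers had -0.00, -0.06 and 0.22, with 1 of 10 called, lower in males, where 1.80% of genes were called lower. Without the arrays of low Hoxb13 0 of the 10 were called in males, where 2.49% of genes were called lower. B and plasma cell markers had 0.73 (-0.93 without the arrays of low Hoxb13), 0.21 and -0.56, with 1 called, lower in OVX females. There 1.02% of genes were called lower. Endothelium markers had 0.01, -0.17 and 0.19, with 0 called. The part of any of these cells in the members' levels was not tested.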

How the data were processed

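Total RNA of colon from 24 mice was hybridized with Cy3 label to Agilent 1-color arrays, 4 per group. The deposited files hold spot intensities from Agilent Feature Extraction 11.0.1.1, per the file headers: the processed signal, already background-subtracted, the median signal and local background, and quality flags. The array's annotation builds on mm9. Control spots were left out, 1967 flagged outlier values were set missing, spots of a probe were averaged, log2 intensities were quantile-normalized as in the study's methods, and each gene took its brightest probe (R 4.3.3, limma 3.58.1). A gene was tested if well above background on all 4 arrays of a group in the comparison. Diet comparisons were fitted on their 8 arrays, all others as contrasts over 24. A call needed 1.5-fold and p under 0.05 before adjustment, as in the study, with Benjamini-Hochberg adjusted p beside it. Exact permutation tests ran over 70 assignments. The precision is limited by 4 arrays a group. The labels give 4 arrays where the methods give 5 animals, and which animal each array came from is not given in the sources used here, so p-values measure the spread between these samples.

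The members, lists and alternatives were chosen with earlier results of these data known. Named are all 10 members, called genes of the GTPase families and of the pathway, and the 10 genes most like the members, apart from 1 gene that is not reported here; antiviral genes are given by counts, and called T, NK and macrophage markers were named after their values were seen. Lists in males without the arrays of low Hoxb13 were added after seeing the data. Deviations of same-numbered arrays correlated with r of 0.26 to 0.58 in F and -0.26 to 0.01 in M. In F(OVX) r was 0.33, -0.09, 0.32 and 0.25 for replicates 1 to 4. Differently numbered arrays were not compared, so whether replicate numbers pair the arrays was not tested. Gbp11, Tgtp1, Cxcl11, Mx1 and Mx2 matched no probe by symbol, Gbp6 and Iigp1 no promoter, and cross-hybridization between close relatives was not tested. The fits were tested on simulated data in which each gene varied on its own. Deviations of an array that genes share, as seen for the members, were not simulated.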

Additional observations from a re-analysis of the deposited data

Results flagged for a closer look

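Irgm1 was the 1 member of 10 called for the difference in HFD effect between males and OVX females, -1.21 on the log2 scale (95% interval -2.38 to -0.04, adjusted p = 0.660 over 22383 genes in limma), where 3.05% of genes were called lower and 3.11% higher. The count of 1 became 0 with 75th-percentile scaling, with the mean of all probes, without both M + LFD arrays of low Hoxb13, and in 10 of the 16 fits that left out 1 array. Its HFD effect was -0.99 in males and 0.22 in OVX females, and the result was picked out because the contrast between both effects was tested. None of the 60 sets of 4 arrays (10 members in 6 groups) held an array that stood apart from the other 3 by Dixon's test. With 4 arrays this test flags only a gap above 0.829 of the range, and the members share the same arrays. It therefore cannot show that no array was outlying.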

How the results depend on the processing

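In the 3 diet comparisons the 30 member results were recomputed 540 times over the settings. No called difference changed sign, 29 values lost a call, 8 gained one, and 29 of members not called changed sign. Beside 6 calls in males, the methods' t-test gave 2 and leaving out both M + LFD arrays of low Hoxb13 gave 0; leaving out 1 array gave 2 to 6. In females the replicate block gave 2 calls against 0, leaving out F + HFD replicate 2 as 1 of the 2 dimmest arrays gave 1, and leaving out 1 array gave 0 to 2. In OVX females leaving out 1 array gave 0 calls throughout. For the difference between males and OVX females, 1 call became 0 with 75th-percentile scaling, 0 with the mean of all probes, 2 with the replicate block, 0 without both M + LFD arrays of low Hoxb13, 6 without the 2 dimmest arrays, and 0 to 6 without 1 array. For that between OVX and intact females, 0 became 2 without the 2 dimmest arrays and 0 to 2 without 1 array, and for males against intact females it was 0 throughout. For the average, 1 became 2 with normexp, 2 with the block, 0 without the low Hoxb13 arrays, and 0 to 4 without 1 array. Across groups, M + LFD against F + LFD went from 0 to 1 with only probes above background on all 24 arrays and to 1 with the block (0 to 2 without 1 array), M + HFD against F + HFD from 1 to 0 with normexp, with no filter, with the block and without the 2 dimmest arrays (0 to 2 without 1 array), F(OVX) + LFD against F + LFD from 0 to 5 without the 2 dimmest arrays (0 to 5 without 1 array), and F(OVX) + HFD against F + HFD kept 0. The block changed no other call count. The cause of these changes was not tested. No setting gave a member an adjusted p under 0.05. The shares of all genes called are given above for only some of these settings.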

Other observations

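Il18, an inducer of interferon-gamma made by epithelium, read 10.34 and 10.57 on M + LFD replicates 1 and 2, the arrays of low Hoxb13, and 12.10 and 12.83 on replicates 3 and 4, where M + HFD arrays read 12.65, 13.11, 12.68 and 13.80. On the arrays of low Hoxb13 the members did not go one way, since replicate 1 had 3 and replicate 2 had 9 of 10 members above their mean over 24 arrays.

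Nos2, the inducible nitric oxide synthase and another target of interferon-gamma, read 9.74, 8.92, 10.01 and 9.47 in F(OVX) + LFD and 6.69, 7.29, 7.62 and 8.48 in F(OVX) + HFD. The arrays of the diets did not overlap, where 0.812% of 19211 genes had every HFD array below every LFD array. The log2 difference was -2.02 ± 0.38 (SE, limma adjusted p = 1.0), in the group where the GTPases had a median difference of -0.14.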
